A study of Mus musculus with 2 samples.

Results

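The genes described here are the colony-stimulating factors and their receptors, 10 genes among the 24346 gene symbols measured in mouse skin wounds. They were chosen by symbol, and all 10 were found in both libraries. The ligands are Csf1, Il34, Csf2 and Csf3, and the receptors are Csf1r, Csf2ra, Csf2rb, Csf2rb2, Csf3r and Flt3. Bulk mRNA was sequenced from dorsal skin wounds of WT and PU.1-/- littermates of the C57BL/6J strain. Pups were wounded with a full-thickness 1-cm cut when 1 day old, and the wounds were taken 24 h later. PU.1-/- mice lack the transcription factor PU.1, encoded by Spi1, and the study describes them as having no neutrophils, macrophages, mast cells or T cells. There was 1 library per genotype, and neither the number nor the sex of the pups behind each is stated. The methods call the wounds incisional and the design text calls them excisional.

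Colony-stimulating factors are secreted proteins that keep myeloid cells alive and drive their growth and maturation. CSF1 and IL-34 both act through the receptor tyrosine kinase CSF1R, which macrophages need. CSF2, also called GM-CSF, binds a specific alpha chain (CSF2RA) that pairs with a beta chain (CSF2RB) also used by the receptors of IL-3 and IL-5. CSF3, or G-CSF, acts through CSF3R on neutrophils and their precursors, and FLT3 is the receptor of FLT3 ligand on early blood cells and dendritic cells. In skin, fibroblasts, keratinocytes and endothelial cells can make these ligands, and keratinocytes are a known source of IL-34. Comparing the genotypes asks how the expression of these genes differs when a wound heals without the inflammatory cells that need PU.1.

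Values are FPKM, in which read numbers are corrected for gene length and sequencing depth, so levels can be compared between genes. Low values moved in whole-read steps, which gave depths of 13802000 reads for WT and 15862000 for PU.1-/-. With transcript lengths, each FPKM value was turned into an estimated number of reads. The 95% intervals given with levels are exact Poisson intervals and those of ratios are exact binomial intervals. They cover counting error only and not the spread between animals, for which there are no replicates and no p-values. A gene passed the 2-fold rule, as lower or higher in PU.1-/-, at a ratio of at least 2, after values below 0.1 FPKM were raised to 0.1. Over 6538 genes at or above 10 FPKM in each library, the median log2 ratio was -0.01. Spi1 itself had 35.4 FPKM in the WT wound against 1.45 FPKM in the PU.1-/- wound, 24.3 times less (17.97 to 34.2). The libraries also differed in genes of the sex chromosomes. Xist was listed at 0 in WT and at 9.48 FPKM in PU.1-/-, whereas Ddx3y was at 21.0 FPKM in WT and listed at 0 in PU.1-/-, and sex and genotype cannot be told apart in these libraries.

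The 4 ligand genes were expressed in both wounds and none passed the 2-fold rule. Of the 6 receptor genes, Csf1r, Csf2ra and Csf3r fell, Csf2rb and Csf2rb2 were moderately lower without passing the rule, and Flt3 was listed at 0 in both wounds. Thus 3 of the 10 genes were lower and none was higher. Over all symbols 4.34% were lower and 2.32% were higher. The rule could call only the 15481 symbols that reached 0.2 FPKM in either library, and of these 6.83% were lower and 3.65% were higher. Of the 10 genes 9 are in that set, all but Flt3. The ligands had a median log2 ratio of -0.07 and together went from 104 to 90.1 FPKM. The 5 receptors that could be called had a median of -3.84, that of Csf2ra, against -0.01 over the symbols that could be called. With Flt3 set to 0 the median of the 6 receptors was -2.26, and together they went from 62.3 to 25.7 FPKM. In bulk tissue, fewer cells of a type and less RNA per cell cannot be told apart.

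**Figure D1:**
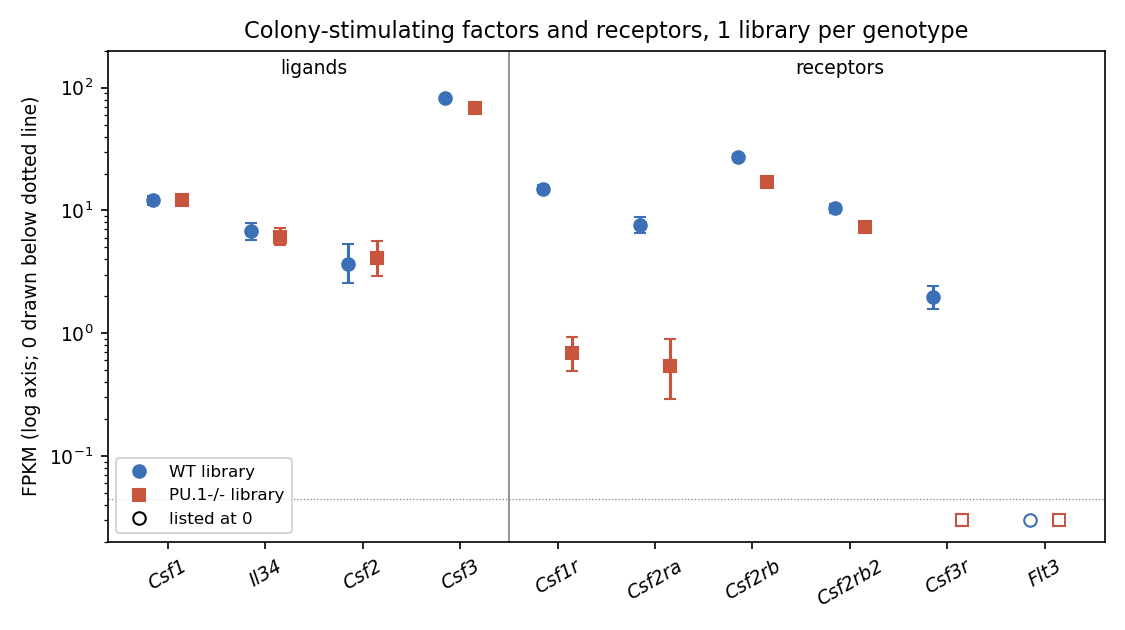
FPKM of each gene on a log axis, in the WT library (circles) and the PU.1-/- library (squares), with 95% Poisson counting intervals and open symbols for values listed at 0. The ligand pairs lie close together, and Csf1r, Csf2ra and Csf3r are the receptors whose PU.1-/- values lie far below the WT values.

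Csf3 was the most abundant of the 10 genes in both wounds. It had 81.7 FPKM in the WT wound (interval 77.4 to 86.2) against 67.7 FPKM in the PU.1-/- wound (64.1 to 71.5), from about 1368 and 1303 reads. This placed it at percentile 95.5 of all symbols in WT and 94.6 in PU.1-/-. Its level in PU.1-/- was 0.829 times that in WT (0.768 to 0.895), a difference beyond counting error that did not pass the 2-fold rule. Csf2, the other ligand of the granulocyte and macrophage lineages, was far lower, with 3.69 FPKM in the WT wound (2.54 to 5.31) against 4.13 FPKM in the PU.1-/- wound (2.91 to 5.60). Only about 31 and 39 reads stood behind these values. Their ratio of 1.12 had an interval from 0.666 to 1.81, so a moderate difference in either direction was not detectable at this depth, and the level of Csf3 was 22.1 times that of Csf2 in WT and 16.4 times in PU.1-/-.

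The ligands of CSF1R were almost level between the wounds. Csf1 had 12.1 FPKM in both, with intervals of 11.2 to 13.0 and 11.3 to 13.0, and a PU.1-/- over WT ratio of 1.01 (0.905 to 1.12) from about 662 and 765 reads. Il34 had 6.77 FPKM in the WT wound (5.72 to 7.94) against 6.12 FPKM in the PU.1-/- wound (5.20 to 7.17), a ratio of 0.905 (0.718 to 1.14). Csf1 was 1.78 times as abundant as Il34 in WT and 1.98 times in PU.1-/-. Of the other receptors known for IL-34, the syndecan gene Sdc1 had 259.9 and 235 FPKM, and the phosphatase gene Ptprz1 had 3.88 and 3.93 FPKM. Trem2, which encodes a receptor of macrophages, had 3.504 FPKM in WT and was listed at 0 in PU.1-/-.

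Csf1r was the third most abundant of the 10 genes in the WT wound and the seventh in the PU.1-/- wound. It fell from 14.97 FPKM (13.9 to 16.1) to 0.684 FPKM (0.491 to 0.936), or from about 758 to 40 reads. WT exceeded PU.1-/- 21.9 times (15.8 to 30.7), and 4.57% of the WT level remained. Its percentile among all symbols went from 77.8 to 45.5. In the WT wound the level of Csf1 was 0.806 times that of Csf1r, and in the PU.1-/- wound it was 17.7 times. For Il34 the same quotient went from 0.452 to 8.95. Both ligand genes thus stood below their receptor gene in WT and above it in PU.1-/-.

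The CSF2 receptor chains differed from each other. Csf2ra, the alpha chain specific to CSF2, fell from 7.65 FPKM in WT (6.55 to 8.87) to 0.536 FPKM in PU.1-/- (0.293 to 0.898), from about 174 to 14 reads, 14.3 times less (8.29 to 26.7). Csf2rb, the shared beta chain, had 27.3 FPKM in the WT wound (26.1 to 28.7) against 17.1 FPKM in the PU.1-/- wound (16.2 to 18.1), from about 1774 and 1276 reads. Its WT level was 1.598 times that in PU.1-/- (1.49 to 1.72), a difference beyond counting error and below the 2-fold rule. The counting intervals of these 2 ratios do not overlap. In each library the level of Csf2ra can be set against that of Csf2rb, and this quotient was 0.280 in WT and 0.0313 in PU.1-/-. At a threshold of 1.5 Csf2rb was lower as well, and 11.2% of the symbols that could be called were lower and 8.27% higher.

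Mice have a second beta chain gene, Csf2rb2, whose product serves IL-3. It had 10.4 FPKM in the WT wound (9.61 to 11.2) against 7.40 FPKM in the PU.1-/- wound (6.79 to 8.06), with the WT level 1.404 times the other (1.25 to 1.58). The quotient of Csf2rb2 to Csf2rb was 0.380 in WT and 0.433 in PU.1-/-. Both genes lie on chromosome 15, with 20078 bases between them, and their coding sequences were the same at 95.2% of 2628 aligned bases in the GENCODE transcripts on GRCm38. The starts of both coding sequences are shown because they let a reader see how alike the genes are, with the bases that differ in capitals (4 of the first 120).
Csf2rb: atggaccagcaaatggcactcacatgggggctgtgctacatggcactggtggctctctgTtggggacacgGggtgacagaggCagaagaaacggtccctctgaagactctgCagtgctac
Csf2rb2: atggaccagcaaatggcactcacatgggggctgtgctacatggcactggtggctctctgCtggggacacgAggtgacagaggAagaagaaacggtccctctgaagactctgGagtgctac
Reads were 75 bases long, and 10.7% of the 75-base stretches of the Csf2rb transcript occur unchanged in Csf2rb2 transcripts, so reads from these stretches could be given to either gene. The longest identical run of the coding sequences was 242 bases. The split between the 2 genes is therefore uncertain, and their sum depends on it far less. Summed, they had 37.7 FPKM in the WT wound against 24.5 FPKM in the PU.1-/- wound, a PU.1-/- over WT ratio of 0.649.

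The partners of the beta chains were measured too. Il3ra, the alpha chain of the IL-3 receptor, had 6.34 FPKM in the WT wound against 4.19 FPKM in the PU.1-/- wound, giving a PU.1-/- over WT ratio of 0.661 (0.499 to 0.869). Its quotient to Csf2rb was 0.232 in WT and 0.245 in PU.1-/-. Il5ra, the alpha chain for IL-5, and the ligand genes Il3 and Il5 were listed at 0 in both libraries. So of the 3 alpha chains, Csf2ra passed the rule, Il3ra did not, and Il5ra could not be assessed. At a threshold of 1.5 Il3ra was lower too, with a WT level 1.51 times that in PU.1-/-, as were 11.2% of the symbols that could be called.

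Csf3r was the lowest receptor gene with a value above 0. It had 1.97 FPKM in WT (1.58 to 2.42), from about 89 reads, and was listed at 0 in PU.1-/-. A count of 0 allows up to 3 reads, or 0.0576 FPKM, and against that limit Csf3r was at least 34.1-fold lower in PU.1-/-. The exact binomial interval of the ratio, which also counts the error of the WT value, begins at a lower value of 27.2-fold. In WT the level of its ligand Csf3 was 41.5 times its own. Flt3 was listed at 0 in both wounds, with an upper limit of 0.0629 FPKM in the WT wound against 0.0547 FPKM in the PU.1-/- wound at 3 reads. The gene of its ligand, Flt3l, had 1.80 and 1.62 FPKM from about 22 and 23 reads, a ratio of 0.900 (0.485 to 1.71). None of 20 general genes such as Actb, Gapdh and Rplp0 was listed at 0 in either library.

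**Figure D2:**
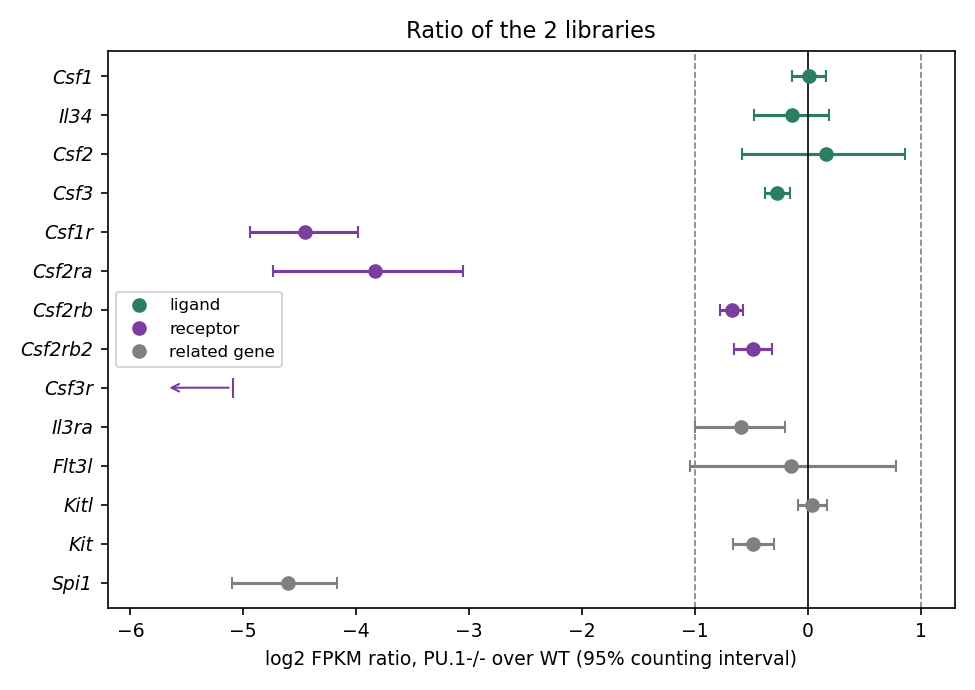
Log2 ratio of FPKM, PU.1-/- over WT, with 95% exact binomial counting intervals, dashed lines at a ratio of 2 in either direction, and a tick with an arrow for the bound of Csf3r. Csf1r, Csf2ra, Csf3r and Spi1 lie left of the lower line, and the ligands lie near 0.

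In the WT wound the order of levels was Csf3, Csf2rb, Csf1r, Csf1, Csf2rb2, Csf2ra, Il34, Csf2, Csf3r and Flt3. The counting intervals overlapped for Csf1 and Csf2rb2 and for Csf2ra and Il34, and the other neighbours in the order had separate intervals. In the PU.1-/- wound the order was Csf3, Csf2rb, Csf1, Csf2rb2, Il34, Csf2, Csf1r, Csf2ra and then Csf3r and Flt3, both at 0. Overlapping neighbours were Csf2rb2 and Il34, Il34 and Csf2, and Csf1r and Csf2ra. All 4 ligands stood above Csf1r in this library.

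**Figure D3:**
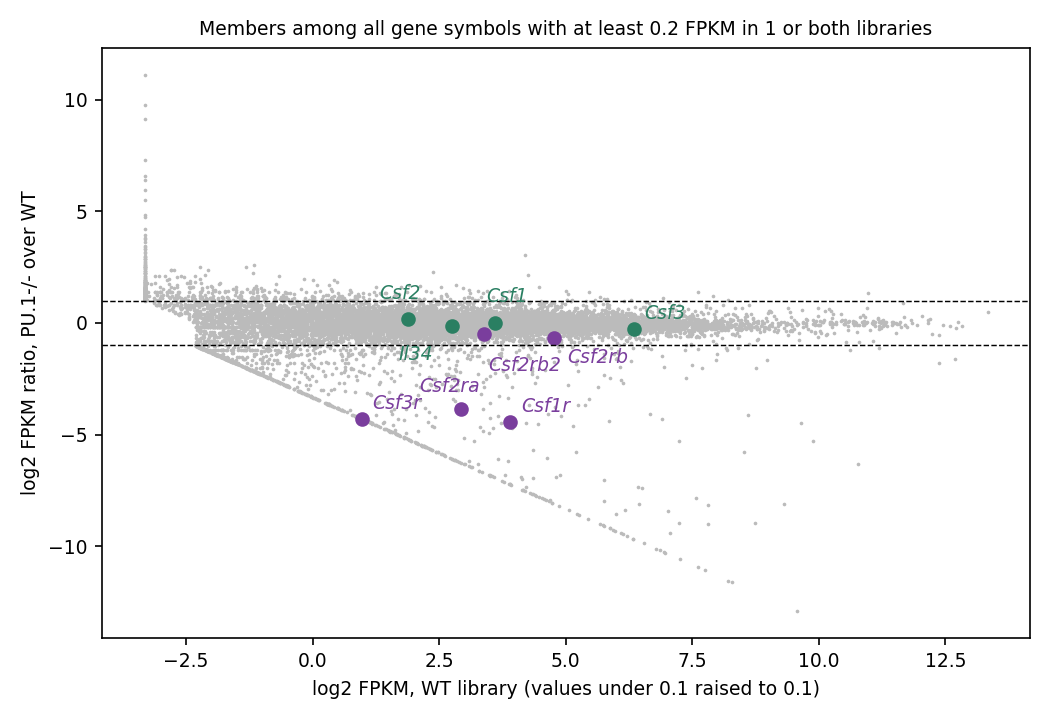
Each gray point is 1 of the 15481 symbols that reached 0.2 FPKM in either library, with log2 FPKM in WT on the x axis and the log2 ratio of PU.1-/- over WT on the y axis, and dashed lines at a ratio of 2. Csf3r lies on the diagonal edge formed by genes raised to 0.1 FPKM in PU.1-/-, Csf1r and Csf2ra lie in the sparse field below the lower line, and the other 6 named genes lie between the lines.

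PU.1 binds DNA at motifs with a GGAA core, so the start regions of the genes were searched for GAGGAA and for GGAAGT on both strands, in the 250 bases before the start given for each gene in the RefSeq promoter table. These motifs share the letters GGAA and can overlap. The windows searched were those of Csf1, Csf2, Csf2ra, Csf2rb2, Csf3r and Flt3, 6 of the 10 genes. Csf1r was left out by the settings of the search, and Il34, Csf2rb and Csf3 were not searched either. GAGGAA was found in Csf2ra (2 matches), Csf2rb2 (1 match) and Csf3r (1 match), and in 23.3% of all 32851 windows. The 30 bases around the matches are shown 5′ to 3′ on the strand of the gene, with the match in capitals, since they belong to the receptor genes discussed above.
Csf2ra, chr19:61228419-61228448, minus strand: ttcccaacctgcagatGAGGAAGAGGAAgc
Csf3r, chr4:126024561-126024590, plus strand: cctccttcctgaGAGGAAggggctgtctat
Csf2rb2, chr15:78305871-78305900, minus strand: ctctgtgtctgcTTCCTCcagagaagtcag
Positions are counted from the 1 start that the promoter table gives for each gene. For Csf2ra and Csf3r the annotated gene begins upstream of that start, so these matches lie within the gene as annotated. The Csf2ra matches lie side by side from base -14 to base -3, the Csf3r match from -86 to -81, and the Csf2rb2 match from -167 to -162 on the opposite strand. Windows with at least 2 GAGGAA matches made up 3.54% of all. Flt3 held 1 GGAAGT match on the opposite strand, from -75 to -70, against 19.7% of all windows, and the windows of Csf1 and Csf2 held neither motif. A match is a description of the letters and not a shown binding site.

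The members are spread over the genome, here given by RefSeq on GRCm38.p6, the assembly of mm10. Csf1 lies on chromosome 3 from 107741048 to 107760469, Il34 on chromosome 8 from 110741829 to 110805949, and Csf2 on chromosome 11 from 54247270 to 54249899. Csf3 is also on chromosome 11, from 98700183 to 98703631. Among the receptors, Csf2ra lies on chromosome 19 from 61217191 to 61228461, Csf2rb2 on chromosome 15 from 78282507 to 78305721 and Csf2rb from 78325800 to 78351001. Csf3r lies on chromosome 4 from 126023441 to 126044975, Flt3 on chromosome 5 from 147330741 to 147400489, and Csf1r on chromosome 18. The nearest protein-coding neighbors were looked up by position. Pdgfrb, the neighbor of Csf1r and a related receptor tyrosine kinase of pericytes and fibroblasts, had 19.3 and 20.2 FPKM, and Hmgxb3, which lies 137 bases beyond Csf1r, had 9.68 and 9.58 FPKM. Mrps15, 1952 bases from Csf3r, had 26.0 and 25.0 FPKM. Next to Csf3, Psmd3 had 114 and 111 FPKM and Med24 had 31.1 and 34.4 FPKM. The neighbor of Csf2rb2 on the other side from Csf2rb is Ncf4, a subunit gene of the phagocyte oxidase, which had 21.2 FPKM in WT and was listed at 0 in PU.1-/-.

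Other genes of the pathways were described from lists, as counts past the 2-fold rule. Signalling proteins of myeloid receptors that are made mainly in blood cells were lower for 15 of 16 genes, with a median log2 ratio of -3.31. Tyrobp, the adaptor DAP12, went from 196 FPKM in WT to 0 in the PU.1-/- list of values, and Fcer1g, a related adaptor, fell from 190.3 to 0.847 FPKM. Ptpn6, the phosphatase SHP-1, fell from 21.0 to 3.31 FPKM, and Lyn, a Src family kinase, fell from 20.2 to 4.09 FPKM. Plcg2 was the 1 gene that did not pass the rule, with 5.23 and 2.64 FPKM. Of 15 signalling genes that CSF1R uses but most cells express, 0 were lower or higher, with a median of 0.02. Over the symbols that could be called, 6.83% were lower and 3.65% were higher. These lists were split by where the genes are mainly made and were chosen with earlier results known. The difference between their counts is therefore a description and not a test. Examples are Akt1 (125 and 118 FPKM) and Mapk3 (98.6 and 90.3 FPKM).

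The list of JAK-STAT genes, the pathway of the CSF2 and CSF3 receptors, had 2 of 16 genes lower and a median of 0.03. The lower genes were Osm, a cytokine of leukocytes, from 15.1 FPKM to a value listed at 0, and Socs1, a feedback inhibitor, from 9.96 to 4.61 FPKM. With a pseudocount of 1 FPKM the count was 1, without Socs1. Socs3, the inhibitor that restrains CSF3R and gp130 receptors, had 114 and 113 FPKM, and Stat3 had 97.9 and 126 FPKM. Of 13 gp130 and related cytokine receptors none passed the rule, with Il6st at 60.1 and 85.1 FPKM and Il4ra at 85.6 and 60.6 FPKM. Some genes stand in more than 1 list, such as Pdgfra, Kit, Kitl and Flt3l. The class III receptor tyrosine kinases other than Csf1r and Flt3, with the PDGF, KIT and FLT3 ligands, likewise had 0 of 9 past the rule, with a median of 0.14. Pdgfra had 61.3 and 79.96 FPKM, and Kit, the receptor of mast cells and melanocytes, had 8.08 and 5.77 FPKM with a ratio of 0.714 (0.631 to 0.810). Of 17 other growth factors and receptors of blood cells, Il7r alone was lower, from 3.86 FPKM to a value listed at 0. Kitl had 12.4 and 12.8 FPKM and Cxcl12 had 52.1 and 54.8 FPKM.

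Genes known to induce Csf2 and Csf3 gave mixed counts. The cytokine genes Il1b, Tnf, Il17a and Il17f fell, 4 of 12 in the list, with Il1b going from 63.9 to 0.169 FPKM and Tnf from 6.40 to 1.31 FPKM. Il17a and Il17f were low in WT, at 0.526 and 0.821 FPKM, and were listed at 0 in PU.1-/-, and the count was 2 when values under 1 FPKM were raised to 1. Il1a had 16.3 and 11.1 FPKM, and the receptor and pathway genes Il1r1, Tnfrsf1a and Rela did not pass the rule. Among 12 regulators of myeloid receptor genes, Spi1, Cebpe, Irf8 and Gfi1 were lower. Cebpe, Irf8 and Gfi1 were low in WT, at 2.25, 2.92 and 0.679 FPKM. The count was 3 with values under 1 FPKM raised to 1 or with a pseudocount of 1 FPKM. Cebpa had 102 and 86.5 FPKM, Cebpb 122 and 124 FPKM, and Klf4 215 and 172 FPKM.

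**Figure D4:**
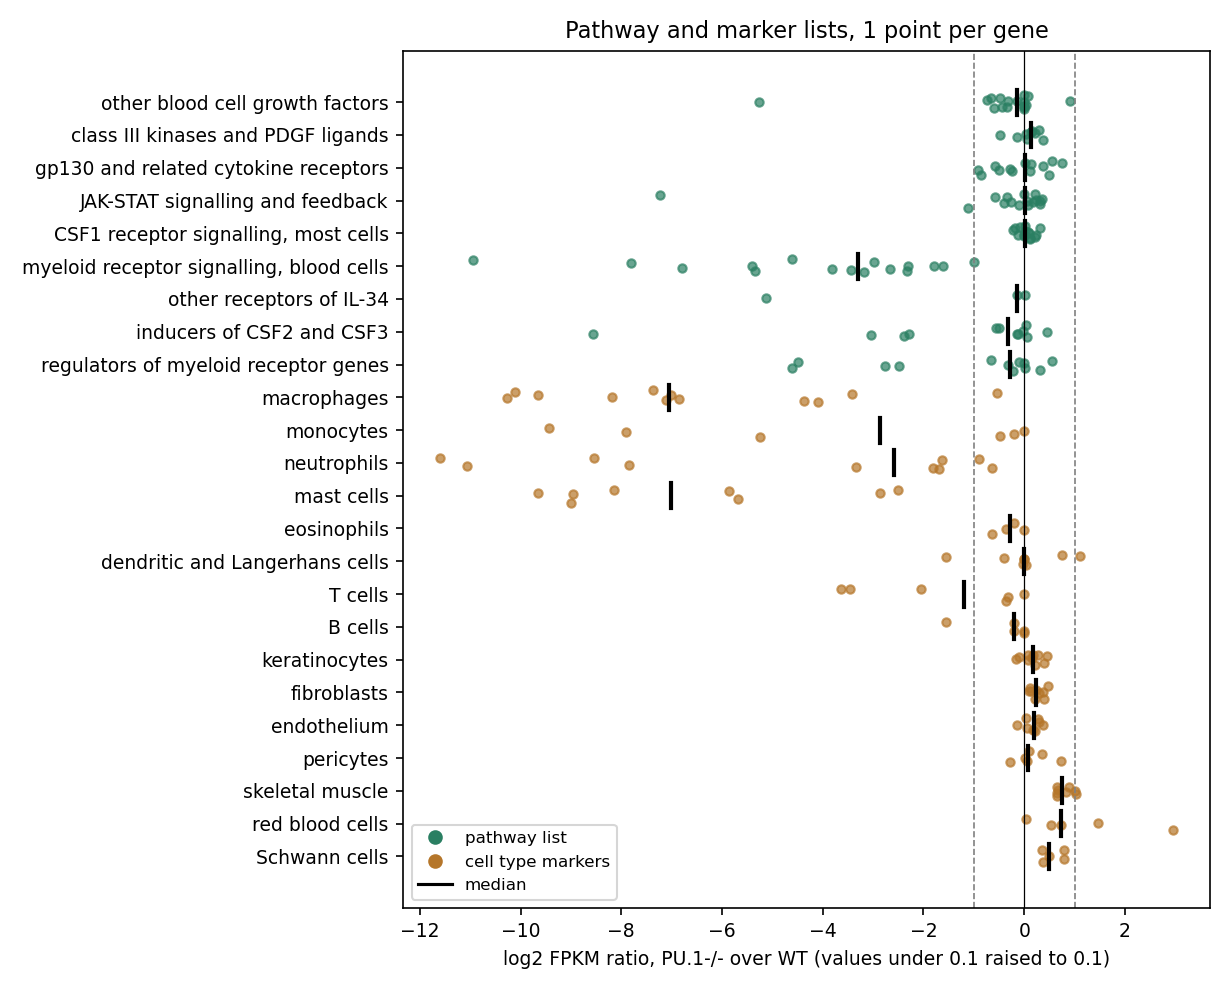
Log2 ratio of FPKM, PU.1-/- over WT, for each gene of the pathway lists (green) and marker lists (brown), with values under 0.1 FPKM raised to 0.1, black bars at the medians and dashed lines at a ratio of 2. The blood cell signalling list and the lists of macrophages and mast cells lie mostly left of the lower line, and the lists of fibroblasts, keratinocytes and endothelium lie near 0.

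Markers of cell types, in lists that hold none of the 10 genes, were measured beside them. Of 12 macrophage markers 11 were lower and 6 were listed at 0 in PU.1-/-, among them C1qb and C1qc, and the list went from 658 to 13.8 FPKM in sum. The sum in PU.1-/- was 2.09% of that in WT, and Csf1r was at 4.57% of its WT level. Neutrophil markers were lower for 8 of 10 genes, with a sum of 12587 and 3676 FPKM. Most of both sums came from S100a8, with 6600 and 2129 FPKM, and S100a9, with 5311 and 1516 FPKM. Ngp, Ltf, Mmp8 and Retnlg were at 0 in PU.1-/-, as was Csf3r, while S100a8 kept 2129 FPKM and Cxcr2 7.17 FPKM. All 8 mast cell markers were lower, with a sum of 739 and 8.43 FPKM, as were 3 of 6 monocyte markers. Ly6c2 fell from 25.6 to 0.107 FPKM and Chil3 from 69.6 to 0.0945 FPKM, while Plac8 had 112 and 96.5 FPKM and Fn1 62.6 and 44.7 FPKM. Lymphocyte markers were near the limit of the rule, at sums of no more than 4.31 FPKM. Of 6 T cell markers 4 could be called and 3 were lower, and of 5 B cell markers 1 could be called and was lower, and both counts were 0 with values under 1 FPKM raised to 1. Of 4 eosinophil markers 1 could be called, and it did not pass the rule. How much of each receptor's difference goes with these cells was not tested.

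None of 10 keratinocyte, 9 fibroblast, 8 endothelial, 6 pericyte and 5 Schwann cell markers passed the rule, with median log2 ratios of 0.17, 0.24, 0.20, 0.07 and 0.50. Both libraries were skin by their markers, with Krt14 and Col3a1 among the abundant genes, the latter at 1042 and 1110 FPKM. Csf2rb and Il3ra had log2 ratios of -0.68 and -0.60 beside these medians. Skeletal muscle markers were higher for 2 of 8 genes, with a median of 0.75, and red blood cell markers for 2 of 5, with a median of 0.73. The red blood cell count was 0 with values under 1 FPKM raised to 1 or with a pseudocount of 1 FPKM, which took the muscle count to 1. What these shifts contribute to the ligand values was not tested.

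With 2 libraries, likeness of a pattern can only mean similar levels, with values under 0.1 FPKM raised to 0.1. Among the genes nearest to Csf1r by distance in log2 FPKM were Slc15a3, with 15.3 and 0.588 FPKM at a distance of 0.22, and Cyth4, with 12.6 and 0.705 FPKM at a distance of 0.25. For Csf3r all genes at or under 0.1 FPKM in PU.1-/- tie in that library, so the order rests on the WT level alone. Nearest to it were Parvg, with 1.96 and 0.0513 FPKM, Rgs1, with 1.93 FPKM and a value listed at 0, and Atp8b4, with 1.92 and 0.0707 FPKM.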

How the data were processed

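Wound mRNA libraries were made by the authors with a stranded kit and sequenced as single-end reads of 75 bases. The authors mapped the reads to mm10 and deposited FPKM values from Cuffnorm 2.2.1. Per the submitters' processing notes, the tools named were TopHat2 2.1.1, Bowtie2 2.2.8, SAMtools 0.1.18 and Cuffdiff 2.2.1. The annotation, the strand setting of the counting and read filters are, for these files, not given in the sources used.

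All values were computed from the deposited FPKM. Depth was the number of reads at which the largest share of low values of genes with 1 transcript came out whole, within 0.02 reads (45.8% of 1774 values in WT and 46.8% of 1702 in PU.1-/-). Equal read numbers would give a WT over PU.1-/- ratio of 1.15, and 460 of 4542 low genes had it within 0.002. Reads were FPKM times depth times the longest RefSeq-linked GENCODE transcript less 200 nt. Estimates are rougher for genes with several transcripts (Csf1, Il34, Csf2rb, Csf2rb2, Csf3r). No test across animals was possible, and functions were tested on simulated data.

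The members and lists were chosen with earlier results of these data known. Genes named were all 10 members, Spi1, set partners (Flt3l, Kitl, Kit, Il3ra, Il5ra, Socs3), and from each list at most 4 called genes of at least 10 FPKM per direction and up to 3 others by summed level. The nearest genes in level followed a rule (the 3 nearest to Csf1r and to Csf3r). Some genes these rules name are not reported here. Il7r, Trem2, Socs1, Tnf, Il17a, Il17f, Il1a, Cebpe, Irf8, Gfi1, Il3, Il5, Ltf, Mmp8, the sex-linked genes and positional neighbors were chosen after their values were seen. Of the listed symbols Ly6g, Trbc2 and Ahsp were not used here. Alternatives were other limits for low values, a pseudocount, scalings, thresholds, a filter, transcript lengths and the summed paralogs. Promoter windows were those of RefSeq on GRCm38.p6, and alignment used Biopython 1.88. Software was scipy 1.17.1, numpy 2.4.6 and pandas 2.3.3 under Python 3.11.15, with figures from matplotlib 3.10.9.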

Additional observations from a re-analysis of the deposited data

How the results depend on the processing

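The count of 3 lower members ranged from 2 to 4 over its 9 alternative settings, and that of higher members was 0 in each. With values under 1 FPKM raised to 1, Csf3r no longer passed the 2-fold rule, at a log2 ratio of -0.98, and at a threshold of 1.5 Csf2rb was added. Scaling to equal FPKM sums moved log2 ratios by 0.05 and scaling to the median ratio by 0.01, except where PU.1-/- values were raised to 0.1 FPKM, and neither changed a call among the members. With a pseudocount of 1 FPKM the log2 ratio of Csf1r was -3.25 and that of Csf2ra -2.49, against -4.45 and -3.84 from the FPKM values. None of the called members changed sign in the 51 alternative ratios. Of these, 6 differed from the main ratio and lay outside the counting interval. They were those of Csf1r, Csf2ra and Csf3r with a pseudocount of 1 FPKM or with values under 1 FPKM raised to 1. The main log2 ratio of Csf3r, -4.30, rests on the raised PU.1-/- value and also lies outside its counting interval. Both scalings left it unchanged. Among the 284 alternative counts of the lists, 17 moved by over 1.5 times or to or from 0. Of 142 alternative list medians, 23 moved by at least 0.5 on the log2 scale. That of the macrophage markers was -4.36 with the pseudocount and -8.52 with values under 0.01 FPKM raised to 0.01, against -7.06, since 6 of them are at 0 in PU.1-/-. No paired analysis was possible because there was 1 library per genotype. For the same reason no library could be left out. Depth limits Csf2 and Flt3l, with 39 or fewer reads each, and Flt3, Il3, Il5 and Il5ra, at 0 in both libraries.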

Other observations

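FLT3 ligand and IL-34 are known to maintain dendritic and Langerhans cells. Cd207, which encodes langerin, was listed at 0 in both libraries, and Clec9a had 0.290 and 0.298 FPKM. In the list of 8 markers of these cells 4 could be called. Ccr7 was lower, from 0.294 to 0.0366 FPKM, and Zbtb46, which endothelial cells also express, was higher, from 1.28 to 2.77 FPKM. With a pseudocount of 1 FPKM neither passed the rule. Batf3 did not pass the rule, with 7.80 FPKM in the WT wound against 13.2 FPKM in the PU.1-/- wound, and which cells expressed it was not tested. Ccr7, Zbtb46 and Cd207 were chosen after their values were seen.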
